A study of Caenorhabditis elegans with 2 samples.

Results

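Small nucleolar RNA (snoRNA) and small nuclear RNA (snRNA) genes of the nematode Caenorhabditis elegans were examined in the peak lists of a chromatin immunoprecipitation sequencing (ChIP-seq) experiment on ZFH-2. ZFH-2 is a zinc finger homeodomain transcription factor related to vertebrate ZFHX3 and ZFHX4. All nuclear genes annotated as snoRNA or snRNA were taken, 475 of 46890 nuclear genes, of which 346 were snoRNA and 129 were snRNA genes. A gene was said to have a summit where the highest point of a peak lay in the gene or within 200 bp of either end. The 2 biological replicates formed 1 group of whole young adult worms, aged 64.5 hours after synchronisation as starved, bleach-prepared L1 larvae. All worms were of 1 strain, RW12167, which carries GFP inserted at zfh-2 with an unc-119(+) rescue marker (st12167) in an unc-119(tm4063) III background, and chromatin was precipitated through GFP. The files are peak lists. Depth is unknown since they hold no counts of reads, and no control library was analysed here. Signal came from all cells of the animal together.

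Box C/D snoRNAs guide 2′-O-methylation and box H/ACA snoRNAs guide pseudouridylation, mostly of ribosomal RNA. The U1, U2, U4, U5 and U6 snRNAs form the spliceosome, and in worms the spliced leader RNAs SL1 and SL2 donate a short leader to messenger RNAs by trans-splicing. Most snRNA and spliced leader genes are transcribed by RNA polymerase II from a promoter with a proximal sequence element that the SNAPc complex binds, U6 by RNA polymerase III, and tRNA genes by polymerase III from A and B boxes inside the gene. Some worm snoRNA genes lie in introns of other genes and some stand alone.

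The authors' conservative list for the whole series, already thresholded on reproducibility (the irreproducible discovery rate), held 7087 peaks, of which 7085 were on nuclear chromosomes. Replicate 1's own thresholded list held 4283 peaks and that of replicate 2 held 4696. The longer ranked lists, with no threshold on reproducibility, held 33037 and 32106 peaks. With 1 group no test between samples exists, and intervals on shares are 95% Wilson intervals that cover counting of genes only.

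Sequences of the 100 bases before the 5′ end are shown because the summits gathered there. They come from members with a high signal and a summit in those 100 bases, by the letters they hold, and from 2 members with no summit. Of these 2, the SL1 gene sls-1.10 is 1 of 10 copies with an identical RNA. Reads from within such copies cannot be placed with certainty, and whether this has a part in its missing summit was not tested. Each is on the gene's strand, 5′ to 3′, from the RefSeq copy of WBcel235 (ce11), and its last base is the base before the RNA. Capitals mark the letters TGTCGG where present, likewise GGAACCC where present, and likewise GTTCNA, in which N is any base.
Members with TGTCGG or GGAACCC follow.
sup-6: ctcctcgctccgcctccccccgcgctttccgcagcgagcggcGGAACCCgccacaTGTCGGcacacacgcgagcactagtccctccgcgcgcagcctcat
sls-2.1: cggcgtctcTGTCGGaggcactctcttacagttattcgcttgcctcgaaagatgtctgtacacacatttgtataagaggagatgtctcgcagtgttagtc
Y55F3BR.9: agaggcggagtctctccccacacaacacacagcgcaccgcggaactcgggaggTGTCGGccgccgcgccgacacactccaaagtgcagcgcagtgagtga
Y53F4B.47: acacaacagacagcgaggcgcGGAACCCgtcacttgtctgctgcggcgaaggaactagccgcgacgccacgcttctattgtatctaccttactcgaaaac
sls-2.8: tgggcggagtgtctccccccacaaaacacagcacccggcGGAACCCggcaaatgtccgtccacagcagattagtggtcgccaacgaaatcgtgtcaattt
Members with GTTCNA follow.
W03C9.9: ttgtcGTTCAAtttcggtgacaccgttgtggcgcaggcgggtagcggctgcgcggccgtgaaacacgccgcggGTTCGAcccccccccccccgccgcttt
C51F7.3: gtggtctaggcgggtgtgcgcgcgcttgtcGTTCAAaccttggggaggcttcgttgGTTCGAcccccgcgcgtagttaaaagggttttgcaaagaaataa
T03F7.8: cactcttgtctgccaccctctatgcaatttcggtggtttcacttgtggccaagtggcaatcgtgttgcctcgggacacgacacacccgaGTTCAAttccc
Y43F8C.22: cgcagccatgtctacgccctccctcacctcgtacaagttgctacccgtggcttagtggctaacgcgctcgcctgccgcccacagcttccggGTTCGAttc
A member with none of these letters follows.
ZK20.9: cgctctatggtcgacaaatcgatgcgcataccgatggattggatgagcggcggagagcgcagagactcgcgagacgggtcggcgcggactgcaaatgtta
Members with no summit in any list follow, a U6 gene and an SL1 gene.
F54C8.10: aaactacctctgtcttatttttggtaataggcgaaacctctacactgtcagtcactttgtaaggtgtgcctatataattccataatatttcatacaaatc
sls-1.10: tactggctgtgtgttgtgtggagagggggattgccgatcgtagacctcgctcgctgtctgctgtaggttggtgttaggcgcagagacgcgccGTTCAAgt

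The stretches lie at chrII:12944968-12945067 (minus strand, in an intron of F58G1.7), chrII:5844765-5844864 (plus), chrIV:867134-867233 (minus), chrII:15025894-15025993 (minus) and chrIII:12250365-12250464 (plus) for the first set. For the second set they lie at chrII:11960798-11960897 (plus), chrV:12303608-12303707 (plus, in the gene frm-7), chrV:11314158-11314257 (plus) and chrV:19643188-19643287 (minus, in the gene Y43F8C.7). ZK20.9 is preceded by chrII:11635125-11635224 (plus), the U6 gene F54C8.10 by chrIII:9449469-9449568 (plus) and the SL1 gene, WBGene00077488, by chrV:17118054-17118153 (plus). In sup-6, GGAACCC and TGTCGG stand close together, and the conservative summit lay 20 bases before the RNA. In C51F7.3, GTTCAA and GTTCGA stand before the RNA in 1 stretch, and the summit lay 69 bases before it. Most of this stretch, with both words, lies inside another annotated snoRNA gene, C51F7.4 (chrV:12303599-12303693, plus). The summit is 40 bases past the 5′ end of C51F7.4.

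Of the 475 snoRNA and snRNA genes, 87 had a conservative summit, a share of 18.3% (15.1% to 22%), against 4739 of all 46890 nuclear genes, or 10.1%. Of those nuclear genes 15363 (32.8%) are piRNA genes of 21 bases, with a summit at 18 of them, and without them the share is 4721 of 31527, or 15%, just below the members' interval. Every share over all nuclear genes given here includes the piRNA genes unless said otherwise. Among snoRNA genes the count was 66 of 346 (19.1%, 15.3% to 23.5%), and among snRNA genes 21 of 129 (16.3%, 10.9% to 23.6%), so the intervals of the 2 kinds overlap. Window length differs between gene types and was not corrected for: it averaged 533.2 bp for the members with their margins and 3626.3 bp for protein-coding genes, of which 16.6% had a summit. tRNA genes, with a mean window of 474.9 bp, had a summit in 110 of 612 cases (18%, 15.1% to 21.2%), a share whose interval overlaps that of the members. miRNA genes, with a mean window of 496.9 bp, had one in 21 of 261 (8.05%, 5.32% to 12%), and none of the 20 rRNA genes had one.

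The replicates' own lists gave similar counts. In replicate 1, 78 members had a summit (16.4%), against 7.1% of all nuclear genes. In replicate 2, 73 members had one (15.4%), against 7.4% of all nuclear genes. Both own lists held a summit at 60 members (12.6%), against 5.63% of all nuclear genes. Of the 87 members with a conservative summit, 59 had one in both own lists, 8 in that of replicate 1 only, 7 in that of replicate 2 only and 13 in neither. At the 59, the signals in the 2 own lists had a Spearman rho of 0.893, a description over members that share libraries. The 59 were picked for a summit in the conservative and both own lists, so part of this agreement follows from the selection. Of the 59, 47 had a better rank in replicate 1's own list than in that of replicate 2. The own-list summits lay a median of 12 bp apart, and 56 of the 59 pairs lay within 50 bp of each other.

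**Figure D1:**
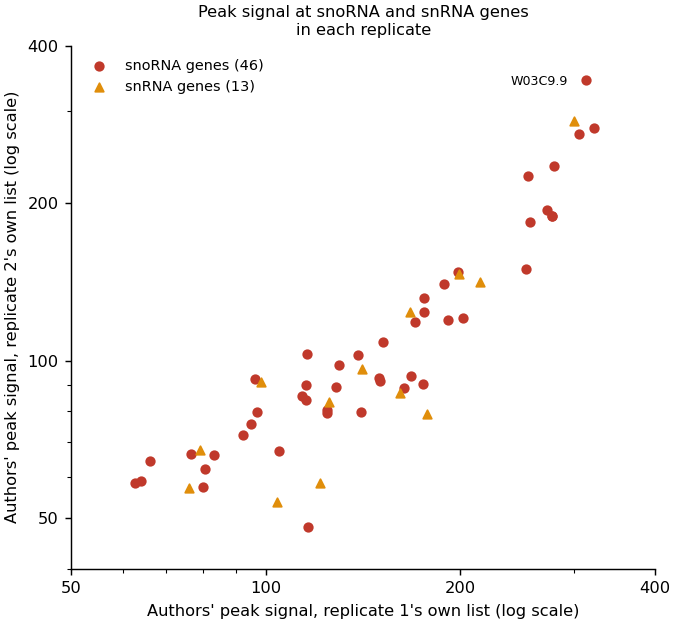
The authors' peak signal in replicate 1's own list (x axis) and in replicate 2's own list (y axis), both on log scales and in the authors' own units, for the 46 snoRNA and 13 snRNA genes with a summit in the conservative list and both own lists. W03C9.9, at 313.0 and 344.4, stands at the upper right. Among the members shown, those high in 1 replicate tended to be high in the other. Members missing from any of these lists are left out.

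The ranked lists reached more of the members. Replicate 1's ranked list reached 181 members (38.1%), against 23.5% of all nuclear genes, and that of replicate 2 reached 179 (37.7%), against 24.4% of all nuclear genes. These counts include members with a conservative summit. Both ranked lists reached 148 members, a count not made over all nuclear genes. Of the 388 members without a conservative summit they reached 65 (16.8%, 13.4% to 20.8%), against 11.9% of all nuclear genes without one, or 18.5% with piRNA genes left out, so this share was near that of other genes. No summit in the conservative, own or ranked lists was found at 263 of the 475 members, a count also not made over all nuclear genes. C34E11.20 was the 1 member in both own lists but not in the conservative list.

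The members' peaks tended to be strong within the list. The median signal of the 87 was 179.5, against 119.4 over all 7085 nuclear summits. Of the 87, 68 were above the median of all summits. Each member was counted by its strongest summit, and members that share a summit were counted separately. The median of all summits took every summit once, so this choice can raise the members' median above it. No such median was taken over the strongest summits of other genes, tRNA genes included. In whole animals, fewer cells with ZFH-2 at a site and weaker binding per cell cannot be told apart. Of the 100 strongest summits in rank, 9 members had one, and of the 500 strongest 21 members had one, with members that share a summit counted separately. These counts were not made for other genes, so no share over all nuclear genes stands beside them. The 87 members rest on 84 distinct summits, and signals ran between 15.4 and 658.8.

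Among members, the strongest summits were mainly at snoRNA genes, which make up 346 of the 475 members and 66 of the 87 with a conservative summit. W03C9.9, a 62-base RNA with box C/D letters, had a conservative signal of 658.8, rank 21 of the list, with 313.0 in replicate 1 and 344.4 in replicate 2. F07A11.15, a snoRNA gene of 271 bases, had a conservative signal of 598.0 with 322.1 in replicate 1 and 278.2 in replicate 2, and its summit lay inside the gene, 83 bases past the 5′ end. In the own lists W03C9.9 ranked 43 in replicate 1 and 6 in replicate 2, and F07A11.15 ranked 32 and 26.

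The U1 gene sup-6 followed with 584.3 in the conservative list, 299.2 in replicate 1 and 287.5 in replicate 2. ZK20.9, with box H/ACA letters, had 570.7, with 304.6 in replicate 1 and 270.9 in replicate 2. W06H8.17, also with H/ACA letters, had 514.3, with 279.5 and 235.9, and its summit lay 178 bases upstream. The first of these lies in an intron and the other 2 in no protein-coding gene of their strand.

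Y37E3.20, in an intron of pcyt-2.1, had a conservative signal of 482.5, with 254.6 in replicate 1 and 225.8 in replicate 2. C51F7.3 and C51F7.4, both in frm-7, share 1 summit with a signal of 469.5, at 277.1 in replicate 1 and 188.8 in replicate 2. Y74C9A.6 had 466.4, with 272.2 and 194.2. These 4 genes are each ranked between 84 and 98 in the conservative list. C02F5.15 (439.9), F59C6.15 (401.6) and the SL2 gene sls-2.4 (356.4) complete the 12 members with the highest conservative signal, and all 12 had a summit in both own lists.

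Some strong members were found in the own list of 1 replicate only, and the 3 with the highest signal are given. F30A10.16 had a conservative signal of 225.3 and 106.1 in replicate 2, and K02F6.11 had 170.4 and 105.9 in replicate 2. D2021.6 had 172.7 and, in replicate 1, 124.1. Their rank in the conservative list was 864, 1760 and 1707.

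The summits gathered just before the 5′ end of the RNA. The strongest summit of the 87 members lay at a median of -31 bp from the 5′ end, with quartiles of -54.5 and 38 bp. It lay upstream of the gene in 61 of them, inside it in 15 and downstream in 11. It lay in the last 100 bp before the 5′ end in 49 of 87 (56.3%), and between 60 and 20 bp before it in 37 (42.5%). The stretch between 60 and 20 bp, which was not planned, makes up a median of 7.75% of the members' windows. It lies around the observed median position, so its share is a description. The median was -32 bp for snoRNA genes and -29 bp for snRNA genes, and it was -30.5 bp in replicate 1's own list and -31 bp in that of replicate 2. At tRNA genes, the median was 13 bp, inside the gene, and 17 of 110 summits (15.5%) lay between 60 and 20 bp upstream.

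**Figure D2:**
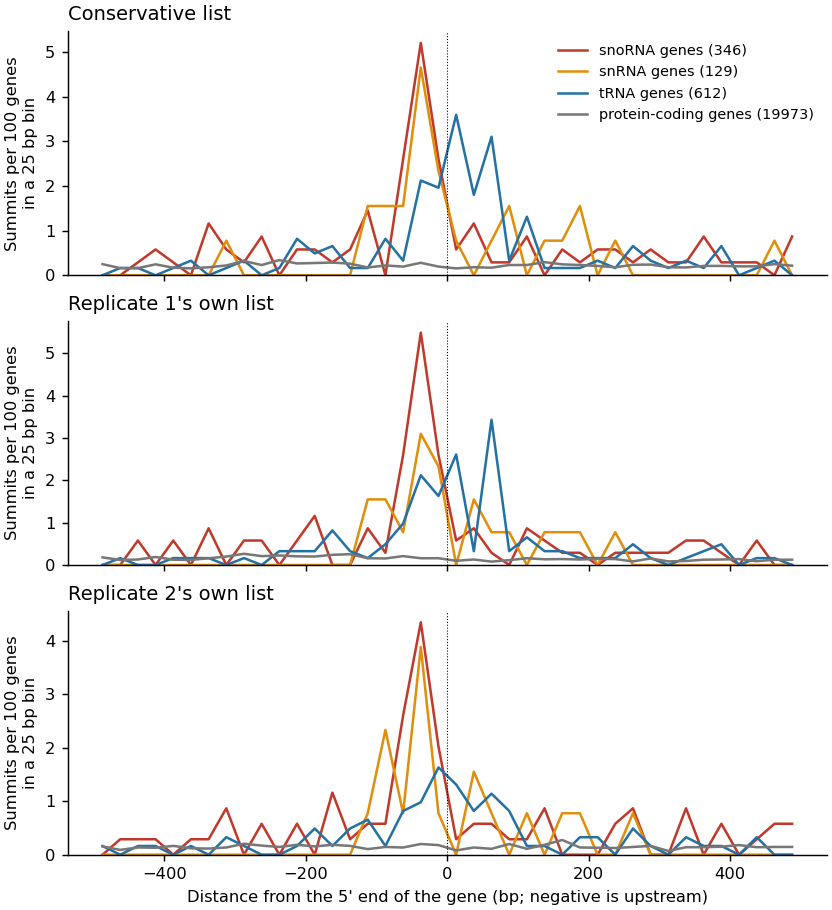
Summits per 100 genes in 25 bp bins (y axis) by distance from the 5′ end of the gene in bp, negative upstream (x axis), for snoRNA, snRNA, tRNA and protein-coding genes, in the conservative list (top) and in each replicate's own list. In the bin from 50 to 26 bp upstream, the conservative list held 5.2 summits per 100 snoRNA genes and 4.65 per 100 snRNA genes, against 2.12 per 100 tRNA genes and 0.28 per 100 protein-coding genes.

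A window of equal length for every gene was therefore also counted, a rule chosen after the data were seen. In the 100 bp before the 5′ end, 49 of 475 members had a conservative summit (10.3%, 7.89% to 13.4%), against 0.947% of all nuclear genes. The share was 10.4% for snoRNA genes (7.61% to 14.1%) and 10.1% for snRNA genes (5.98% to 16.5%). It was 5.23% for tRNA genes (3.73% to 7.29%), 2.09% for genes annotated as ncRNA, 1.15% for miRNA genes and 0.891% for protein-coding genes (0.77% to 1.03%). Replicate 1's own list gave 48 members (10.1%), against 0.787% of all nuclear genes, and that of replicate 2 gave 43 (9.05%), against 0.71% of all nuclear genes. The rule was drawn from these summits, so the shares are a description.

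**Figure D3:**
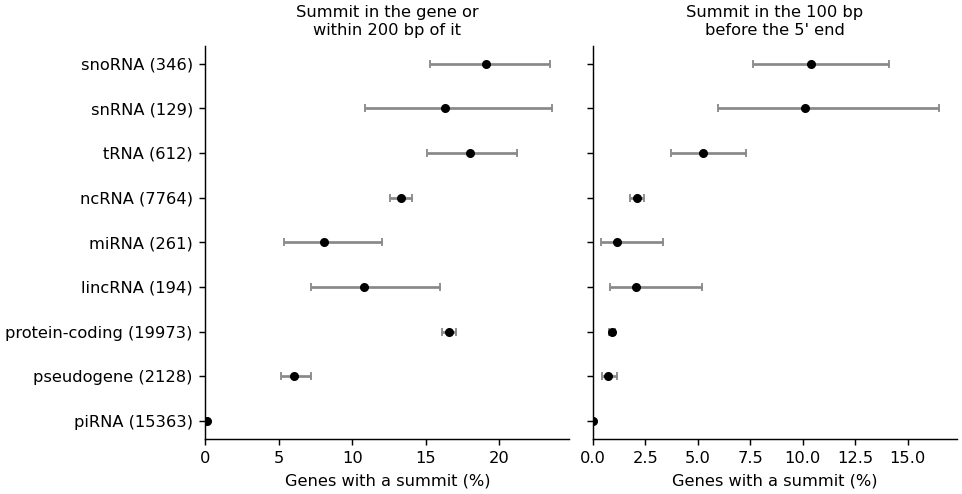
Percent of genes with a conservative summit in the gene or within 200 bp (left) and in the 100 bp before the 5′ end (right), with 95% Wilson intervals, by annotated gene type (number of genes in brackets). In the right panel snoRNA genes (10.4%) and snRNA genes (10.1%) stand at higher shares than tRNA genes (5.23%) and protein-coding genes (0.891%), and the snRNA and tRNA intervals overlap.

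Base composition moved with these counts. The 100 bp before the 5′ end averaged 45.4% GC for members, 41.4% for tRNA genes and 33.2% for protein-coding genes. It averaged 53.1% ± 8.46 in the 87 members with a summit and 43.6% ± 9.91 in the 388 without one (SD over genes). Centred 60 bp before the 5′ end, mean GC in 21 bp was 58.8% in members with a summit and 47.5% in those without.

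Within ranges of GC the members' share was closer, as a ratio, to that of protein-coding genes. Where those 100 bp held 60% GC or more, 16 of 35 members had a summit there (45.7%, 30.5% to 61.8%), against 49 of 86 protein-coding genes (57%, 46.4% to 66.9%). Between 50% and 60% the counts were 27 of 148 members (18.2%, 12.9% to 25.2%) and 78 of 730 protein-coding genes (10.7%, 8.65% to 13.1%). Between 40% and 50% they were 6 of 144 members (4.17%, 1.92% to 8.79%) and 36 of 3278 protein-coding genes (1.1%, 0.794% to 1.52%). Below 40% they were 0 of 148 members, with an upper bound of 2.53%, and 15 of 15879 protein-coding genes (0.0945%). The 2 intervals are separate between 40% and 50% GC and overlap in the other ranges. tRNA genes had shares close to the members' in the middle ranges: 10 of 273 between 40% and 50% GC (3.66%, 2% to 6.61%) and 15 of 84 between 50% and 60% (17.9%, 11.1% to 27.4%). At 60% GC and over, 5 of 8 tRNA genes had a summit (62.5%, 30.6% to 86.3%), and below 40% it was 2 of 247 (0.81%). The members' interval overlaps that of tRNA genes in every range. Whether base composition has a part in the members' summits was not tested.

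**Figure D4:**
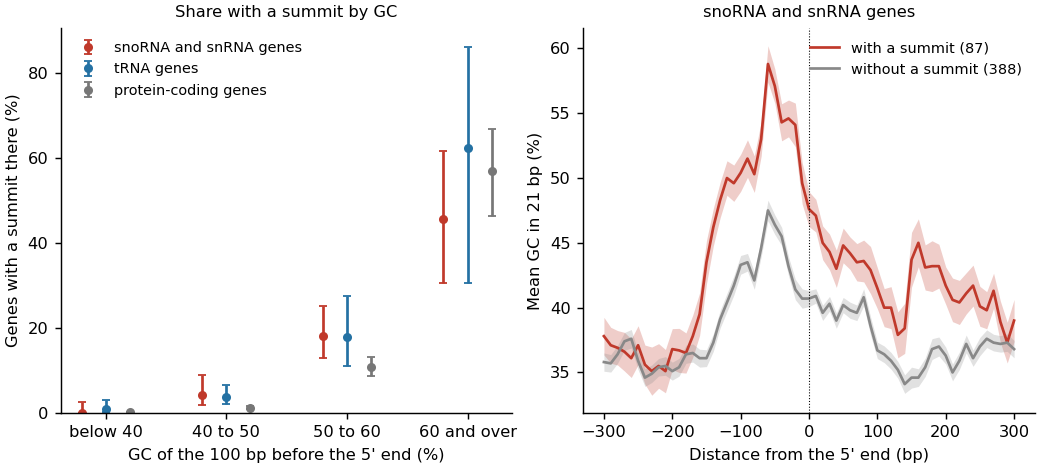
Left, percent of genes with a conservative summit in the 100 bp before the 5′ end (y axis) by the GC content of those bases (x axis) for snoRNA and snRNA, tRNA and protein-coding genes, with 95% Wilson intervals. Right, mean GC content in 21 bp (y axis; band, SEM) by distance from the 5′ end for 87 members with and 388 without a summit, at 58.8% and 47.5% at 60 bp upstream.

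The share was alike inside and outside host genes, with overlapping intervals. Of 183 snoRNA genes inside a protein-coding gene of the same strand, 34 had a summit (18.6%, 13.6% to 24.8%), against 32 of 163 outside (19.6%, 14.3% to 26.4%). For snRNA genes the counts were 6 of 37 inside (16.2%) and 15 of 92 outside (16.3%). The 220 members inside a same-strand gene lay in 191 host genes, 39 of which had a member with a summit. In frm-7 and in rps-12, which encodes a ribosomal protein, 2 members each had one.

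Intronic members far from any protein-coding 5′ end also had summits. A promoter window here is the stretch between 1000 bp before and 200 bp after a protein-coding 5′ end. Of 121 members in an intron of a same-strand gene whose window met no promoter window, 21 had a summit (17.4%, 11.6% to 25.1%). In 17 of the 21 (81%) it lay in the 100 bp before the RNA, at a median of -39 bp, and 20 of the 21 had one in both own lists. Examples are C27H6.5 in unc-41 (259.6, 58 bp upstream), K11C4.6 in the spectrin gene unc-70 (170.9, 47 bp upstream), C16D9.11 in rol-3 (171.4, 57 bp upstream) and M106.6 in the condensin gene mix-1 (143.0, 36 bp upstream), each with its conservative signal. Where an intronic member's window did meet a promoter window, 10 of 57 had a summit, 4 of them in those 100 bp. Over all members, 38 of 161 meeting a promoter window had a summit (23.6%, 17.7% to 30.7%), against 49 of 314 meeting none (15.6%, 12% to 20%).

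Hosts of the translation machinery, a group chosen after the values were seen, hold few members. Of 21 members in genes named rpl-, rps- or eef-, 7 had a summit, and in 1 of the 21 it lay in the 100 bp before the RNA. Of all 220 members inside a same-strand gene, 40 had a summit (18.2%), and 24 had one in those 100 bp (10.9%). Whether the groups differ in position was not tested. The summit at F28C6.11 lay 50 bp past the 5′ end of its host rpl-26 and 136 bp before the RNA. The summit near F54E7.10 and F54E7.11 lay 379 bp past the 5′ end of rps-12, with a signal of 88.1 in the conservative list and no summit in either own list. The other 4, in rpl-4, rpl-15, rpl-7A and eef-1G, had theirs between 155 and 373 bp past the 5′ end of the RNA.

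By RNA class, the spliceosomal and spliced leader classes hold few genes, and the intervals of U1, U2, U4, U5, U6, SL1, SL2 and SmY overlap one another. Among U1 genes 4 of 12 had a conservative summit (33.3%, 13.8% to 60.9%), and among U2 genes 7 of 20 (35%, 18.1% to 56.7%), the U2 letters having been set after the data were seen. Of these, 2 of the 4 U1 genes and 3 of the 7 U2 genes had a summit in both own lists. Replicate 1's own list held 2 U1 and 5 U2 genes, and that of replicate 2 held 5 U1 and 4 U2 genes. U1 pairs with the 5′ splice site and U2 with the branch point. The U1 values ran between 102.4 at T27E4.12 and 584.3 at sup-6, with 208.7 at H27M09.6 and 120.4 at F08H9.10. T27E4.12 overlaps the unclassed snRNA gene T27E4.22, which shares its summit. All 7 U2 signals lay between 87.2 and 155.2, below those of sup-6 and H27M09.6. The 20 U2 genes hold 13 distinct sequences, 1 of them, C47F8.9, in 7 identical copies. Copies of C47F8.9 had summits with signals of 88.8, 107.7 and 155.2, and reads from within identical copies cannot be placed with certainty.

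SL2 genes had a summit in 6 of 18 cases (33.3%, 16.3% to 56.3%), 5 of them in the 100 bp before the RNA. Their conservative signals were 356.4 at sls-2.4, 348.0 at sls-2.1, 258.8 at sls-2.8, 237.3 at sls-2.2, 191.7 at sls-2.15 and 176.5 at sls-2.9, and all 6 had a summit in both own lists. sls-2.9 is the 1 member with a tRNA gene within 200 bp. In replicate 1's own list sls-2.14 (55.4) and sls-2.16 (81.3) also had one. None of the 12 SL1 genes, whose upper bound is 24.2%, had a summit in the conservative or own lists. Of these, 10 are identical copies.

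U4, which pairs with U6 in the tri-snRNP, had 1 of 5, T11F9.15 (WBGene00014291; 248.4, 34 bp upstream), which lies before the Sm protein gene snr-4. Its RNA is 1 of 2 identical copies. U5, which aligns the exons, had 1 of 10, F32B5.9 (90.0), which was in neither own list. U6, at the catalytic centre, had 1 of 22 (4.55%, 0.807% to 21.8%), the copy of R07E5.16 in dhc-4 (WBGene00014543; 292.6), 105 bp upstream. None of the 12 genes named smy, for the SmY RNAs of trans-splicing, had one. The U6 genes include 14 copies with an identical RNA, and reads from within identical copies cannot be placed with certainty. Copies were matched on the RNA alone, and the bases beside them can differ. Over the windows of these copies GC ran between 32.3% and 47.8%. Whether placing of reads has a part in the missing summits was not tested. Among the 44 members with an identical copy, 5 had a summit, against 82 of the 431 without one.

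Classes of snoRNA, set by letters of their boxes, also carried summits throughout. Of 14 genes with box C/D letters 5 had one (35.7%, 16.3% to 61.2%), of 84 with H/ACA letters 19 (22.6%, 15% to 32.6%) and of the 248 others 42 (16.9%, 12.8% to 22.1%). All intervals overlap. All 5 C/D summits lay in the 100 bp before the RNA, as did 10 of the 19 H/ACA summits.

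**Figure D5:**
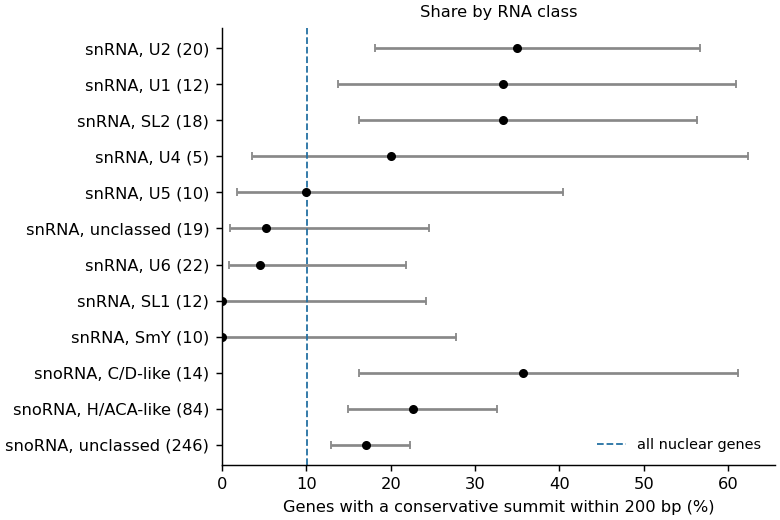
Percent of genes with a conservative summit within 200 bp (x axis), with 95% Wilson intervals, by RNA class (number of genes in brackets); classes of under 5 genes are left out. The dashed line is the share over all nuclear genes (10.1%), and the U2 (35%), U1 (33.3%) and SL2 (33.3%) classes stand above it while no SL1 or SmY gene has a summit. The U2, U4, U5, U6 and SL1 classes hold genes with an identical RNA, and reads from within such copies cannot be placed with certainty.

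The letters before the RNA split the members with a summit there into sets. The letters were chosen after the sequences of members with summits were seen, so the counts are a description. TGTCGG on the gene's strand was found in the 100 bases before 42 of 129 snRNA genes (32.6%) and 32 of 346 snoRNA genes (9.25%), against 1.13% of all nuclear genes. Its start lay at a median of -47 before snRNA genes and -49 before snoRNA genes. GGAACCC was found before 31 snRNA genes (24%) and 21 snoRNA genes (6.07%), against 0.254% of all nuclear genes, at a median of -60 and -62. Whether these letters are proximal sequence elements was not tested.

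GTTCNA, the letters at the core of the tRNA B box, was found before 59 snoRNA genes (17.1%) and 17 snRNA genes (13.2%), against 10.1% of all nuclear genes. GTTCGA alone was found before 24 snoRNA genes (6.94%) and no snRNA gene, against 1.54% of all nuclear genes. Only sls-2.9 has an annotated tRNA gene within 200 bp, so nearly all these letters lie outside annotated tRNA genes. A summit in the 100 bp was present at 13 of the 59 snoRNA genes with GTTCNA (22%) and at 0 of the 17 snRNA genes with it.

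Of the 49 members with a summit in the 100 bp before the RNA, 21 had TGTCGG or GGAACCC there, 13 had GTTCNA without these, and 15 had none of the 3. Read the other way, 21 of 103 members with TGTCGG or GGAACCC had such a summit (20.4%), 13 of 72 with GTTCNA alone (18.1%) and 15 of 300 with none (5%). The 103 include 4 that also have GTTCNA, and none of these 4 had such a summit. Of all nuclear genes other than the members, 395 of 46415 had a summit in those 100 bp (0.851%). TGTCGG stood before 74 members, 15 with a summit there (20.3%), against 8.48% of members without it. It stood before 455 other genes, 9 with one (1.98%). GGAACCC stood before 52 members, 12 with a summit (23.1%), against 8.75% of members without it. It stood before 67 other genes, 3 with one (4.48%). GTTCNA stood before 76 members, 13 with a summit (17.1%), against 9.02% of members without it. It stood before 4661 other genes, 19 with one (0.408%). Among other genes the share was thus above 0.851% with TGTCGG and with GGAACCC, and below it with GTTCNA. GC content moved with the letters: the 100 bp averaged 53% GC in members with TGTCGG and 44% in those without it.

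Other short words were counted too. CGCCGC on the gene's strand, also chosen after the sequences were seen, stood before 26 members (5.47%), against 0.727% of all nuclear genes. A summit in those 100 bp was present at 12 of the 26 (46.2%), against 37 of the 449 members without these letters (8.24%) and 38 of 315 other genes with them (12.1%). GTTCGA stood before 24 members, 9 with such a summit (37.5%), and before 699 other genes, 8 with one (1.14%). The 100 bp averaged 57.2% GC in members with CGCCGC and 54.1% in those with GTTCGA.

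Further words, counted on either strand, met few of the members' summits. TATAAA stood before 59 members (12.4%), against 17.5% of all nuclear genes, and 3 of the 59 had a summit there. TATATA stood before 33 members (6.95%), against 5.07%, and TAATTA before 14 (2.95%), against 6.13%, with no such summit at either. CAGCTG stood before 25 members (5.26%), against 1.53%, with 2 summits, CACGTG before 7 (1.47%), against 1.55%, and GAGAGAGA before 5 (1.05%), against 1.06%, with none. Within 50 bp of the 84 members' summits, CAGCTG was found at 3 (3.57%), against 6.2% of all conservative summits, and GAGAGAGA at 0, against 4.02%. Before 119 distinct snRNA upstream sequences, no position between -100 and -1 had the same base in 70% or more.

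Across chromosomes the members' share ran between 2.78% and 27.6%. On chromosome I it was 20 of 90 members (22.2%, 14.9% to 31.8%), against 19.3% of its genes. Chromosome II had a summit at 24 of 87 members (27.6%, 19.3% to 37.8%), against 15.6% of its genes of all kinds, and chromosome V at 18 of 95 (18.9%), against 10.1%. On chromosome IV it was 12 of 100 members (12%, 7% to 19.8%), against 3.35% of its genes, or 13% without the 14714 piRNA genes that it holds, and on chromosome III 12 of 67 (17.9%), against 18.8%. On the X chromosome 1 of 36 members had one (2.78%, 0.492% to 14.2%), D2021.6, against 15.4% of all its genes.

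Genes for proteins that make, assemble or work with these RNAs were counted as the surrounding pathway. Of 54 listed, 50 were matched by name, and 8 of these (16%) had a conservative summit in the promoter window, against 8.82% of all 19973 protein-coding genes, a share inside the list's interval, whose lower bound is 8.34%. Their signals were 263.9 for ints-4, an Integrator subunit, 248.4 for snr-4 and 101.4 for snr-3, both Sm proteins, 143.2 for prp-31 and 130.1 for snrp-200, of the spliceosome, 111.1 for nola-3, of the H/ACA particle, and 106.9 for smn-1 and 85.8 for smi-1, of the SMN complex. Of the 8, 3 were in both own lists (snr-4, nola-3 and prp-31) and 3 in neither (snr-3, smn-1 and smi-1). The summit in the window of snr-4 is that of T11F9.15. None of the 4 box C/D core proteins and none of the 3 listed SL trans-splicing proteins had a conservative summit there, and among the 20 matched genes of snRNA transcription ints-4 alone had one. A further 5 listed genes had a summit in 1 own list: snpc-3.4 (138.8), snpc-3.2 (49.2) and prp-8 (46.8) in replicate 2, and nol-58 (80.9) and ints-3 (69.9) in replicate 1.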

How the data were processed

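ChIP-seq peaks of ZFH-2::GFP were taken as the authors deposited them, in build ce11 per the labels: a conservative list and another pooled list of the series, and per replicate 1 thresholded and 1 ranked list. Aligner, peak caller and control: not given in the sources used here. In the deposited lists the score of a peak is at most 1000 and follows its irreproducible discovery rate, and the ranked lists also hold −log10 of that rate, which the counts did not use. The deposited signal of a peak is the authors' value, on a scale that no source used here states, and served only to rank and describe peaks within a list. No column was without a sample or pooled group.

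Coordinates were compared with WBcel235: chromosome names are the same without the prefix, and 0 peaks of these lists passed a chromosome's end. Genes came from Ensembl release 115. The summit was the start plus the listed offset. Host genes were protein-coding genes of the same strand that contain the RNA gene. RNA classes were set by letters of the RNA. The genes named are the 12 members with the highest conservative signal, up to 25 with a summit in both own lists, the 3 highest of each class, hosts with 2 or more members that have a summit, and 3 members in the own list of 1 replicate; others are marked or given as examples of a count. Members and lists were chosen with earlier results of these data known. The 2 replicates are separate biological replicates per the labels. No test was run, since the design holds 1 group. Shares have 95% Wilson intervals, and the window counting was tested on simulated data. Alternatives were other margins, each own list, the other pooled list, peaks above the median signal, overlap of intervals, merged regions, identical copies counted once and members outside promoter windows. Counts were made with pandas 2.3.3 and NumPy 2.4.6 and intervals with SciPy 1.17.1, under Python 3.11.15; matplotlib 3.10.9 drew the figures.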

Additional observations from a re-analysis of the deposited data

How the results depend on the processing

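Of 64 recounts, 53 stayed within 1.5 times the count as reported or within its interval or spread, and 11 did not. With no margin around the gene, 16 members had a conservative summit (10 snoRNA and 6 snRNA genes), and 6 had one in both own lists, since most summits lie before the gene. With margins of 100 and 500 bp the conservative count was 71 and 111. The replicates' own lists gave 73 to 78 members (snoRNA 55 to 61, snRNA 17 to 18) and 7.1% to 7.4% of all nuclear genes, and 43 to 48 members with a summit in the 100 bp before the RNA. The share of snoRNA genes with a summit in the own lists was 14.2% to 15.8% inside hosts and 17.8% to 19.6% outside. Members outside every promoter window with a summit numbered 49 of 314, and 30 of the 314 had it in the 100 bp before the RNA; both have fewer members to count. With piRNA genes left out, an alternative added after seeing the data, the share of all nuclear genes was 15%. The ranked lists held 148 members in both, with no count over all nuclear genes beside it. The share of all nuclear genes moved to 6.2% with the stronger 50% of peaks, where 68 members kept a summit, and to 1.98% where the peak had to cover 50% of the widened gene, a rule that long genes seldom meet and that 60 members met. The median position was -30 bp with the summit nearest to the 5′ end, and -31 to -30.5 bp in the own lists. Identical sequences counted once gave 85 of 440. No paired analysis was possible because the 2 replicates belong to 1 group.

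The lists hold no read counts, so a missing summit cannot be told from low coverage. Reads from within identical copies, which were matched on the RNA alone, cannot be placed with certainty. Members that share a summit, a host or copies are not independent. No control or untagged library was analysed here.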
